A study of Mus musculus with 24 samples.

Results

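Gene expression on the second day after gamma irradiation was examined in the liver of infant mice, by setting the 4 arrays of 48 h against the 4 arrays of 24 h. These are 8 of the 24 arrays in the series, and they were picked by their labels alone. The infant mice were B6C3F1 hybrids (a cross of the C57BL/6 and C3H strains), 1 week old when they received 4 Gy of 137Cs gamma rays at 0.57 Gy per min. Each time held 2 males and 2 females, each array standing for 1 mouse as the labels number them. The 4 infant arrays labelled 0 h served to say whether a second-day change continued, reversed or started after the first day. The 8 arrays of 7-week-old B6C3F1 mice at 24 h and 48 h after the same dose served to test whether a second-day change differed with age. The sample labels place the 0 h livers after exposure, whereas the treatment text also speaks of sham-irradiated mice, so 0 h is used here as the name of a group. No unexposed infant of the same day was analysed here, so time since exposure and a further day of growth cannot be told apart.

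Levels are log2 of the scanner's processed signal after subtracting the 75th percentile of each array, so a level of 0 is the brightness that 75 of 100 probes stay under. A difference of 1 on this scale is 2-fold. The 75th percentile of the 8 arrays ran from 194 to 308 intensity units, and 45.8% to 52% of the probes were well above background. Arrays of the same group and sex correlated at 0.99 to 0.993. The defining hepatocyte genes Alb, Ttr, Apoa1, Apoa2, Apob, Serpina1a, Hnf4a and Cps1 lay between the 94.4th and the 100th percentile on all 8 arrays. In the infants, all males and the 24 h females were on slide 1, and the 0 h and 48 h females on slide 2. Slide and time therefore cannot be told apart in females, on the first day as on the second, whereas the males give a comparison within 1 slide, and the male value is printed beside the main results.

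Newborn and infant mouse liver still makes blood cells. Erythroblasts, granulocyte precursors, megakaryocytes and B cell precursors sit among the hepatocytes and leave or die out as blood formation moves to the bone marrow, and dividing blood precursors are among the cells most sensitive to radiation. Hepatocytes at this age are also still maturing, and they secrete hepcidin, the peptide hormone that lowers iron uptake and iron release by making the exporter ferroportin disappear from cell surfaces. Demand for iron by erythroblasts is known to hold hepcidin low, and signals through BMP receptors and through STAT3 raise it. In whole liver, fewer cells of a type and less RNA per cell cannot be told apart.

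Of 23115 genes tested, 464 (2.01%) passed an adjusted p of 0.05 in limma between 48 h and 24 h, 280 (1.21%) higher and 184 (0.796%) lower at 48 h. The falls were larger than the rises: 86 genes fell at least 2-fold and 38 rose at least 2-fold. Among genes with a symbol, blood cell genes led the falls, with beta globin genes, the red cell anion exchanger gene Slc4a1 and granule protein genes of neutrophils at the top. The hepcidin genes Hamp2 and Hamp and the glutathione-degrading enzyme gene Chac1 were among the largest rises. All 464 genes moved the same way in males and in females, which calling on the average of both sexes favours. For 425 of them the 8 arrays of both times did not overlap, which held for 12.6% of all genes tested. Within slide 1, the males alone gave 91 calls, of which 88 were among the 464. With slide as a fixed term 100 genes passed. Leaving out 1 of the 8 arrays gave 176 to 246 calls, except that 495 passed without 48 h male 1. The share of calls that were rises was 60.3%, against 52.1% (226 higher, 208 lower) after quantile normalization and 33.8% (51 higher, 100 lower) after scaling by the median, so the balance of rises and falls depends on the scaling.

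**Figure D1:**
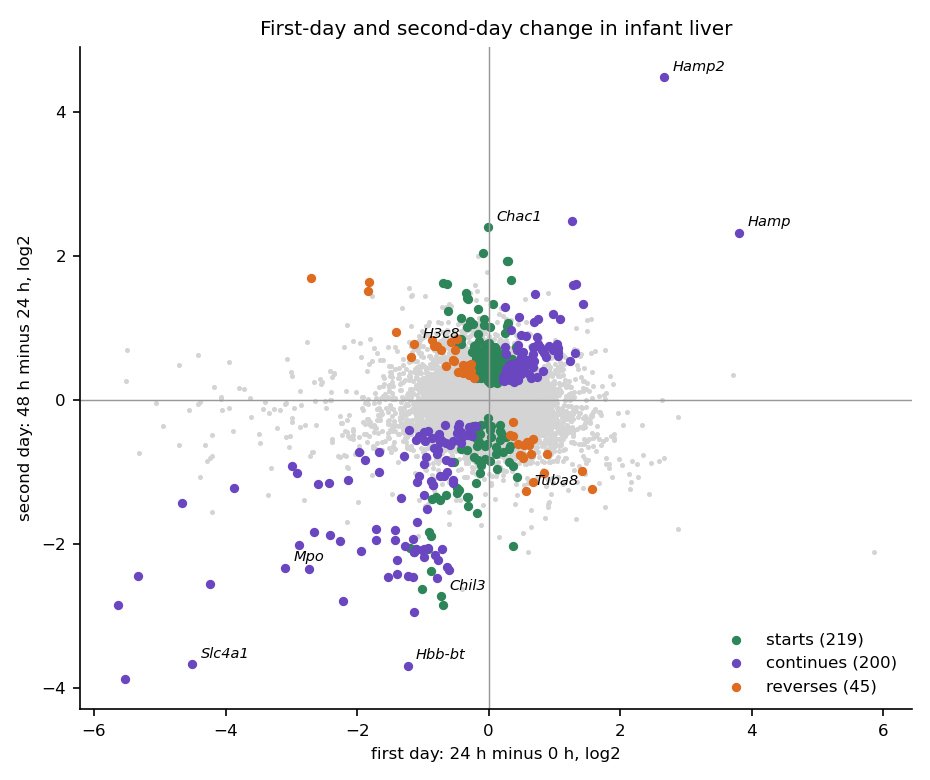
Each point is 1 of 23115 genes, with its 24 h minus 0 h change across and its 48 h minus 24 h change upwards, both in log2; the coloured points are the 464 genes past an adjusted p of 0.05 on the second day, by class. Both axes use the 24 h arrays, so the tilt of the cloud is no result, and the 200 genes that continue lie at the upper right and lower left.

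Called genes were sorted by their first-day comparison, 24 h against 0 h, in which 20.2% of all genes passed. Of the 464 genes, 200 had already passed in the same direction and are said to continue, 45 had passed in the opposite direction and are said to reverse, and 219 had not passed and are said to start. The comparisons share the 24 h arrays, so these counts describe the genes and are no test. Among the continuing genes 97 rose and 103 fell, and the falling ones moved by a median of -0.98 on the first day and -1.13 on the second. The reversing genes, 27 rising and 18 falling on the second day, had median 48 h minus 0 h differences of 0.01 and -0.12, and 4 of the 27 and 2 of the 18 passed in that comparison, in which 35.6% of all genes did. The 0 h and 48 h females shared slide 2 and the 24 h females were on slide 1, so in females a reversal and a difference between slides cannot be told apart. With slide as a fixed term 37 genes continue, 10 reverse and 53 start, and in males alone on slide 1 these were 35, 7 and 49. The starting genes were 156 rises and 63 falls, with median second-day changes of 0.47 and -0.82.

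Hepcidin gave the largest rise, and the 250 bases before the start of its 2 genes and of 2 other genes are shown because these genes carry the extremes of the second day. All are RefSeq sequence of build GRCm38.p6, 5′ to 3′ on the strand of the gene, at chr7:30944030-30944279 (minus strand, Hamp), chr7:30924182-30924431 (minus strand, Hamp2), chr2:119350992-119351241 (plus strand, Chac1) and chr7:103813924-103814173 (minus strand, Hbb-bt). Capitals mark, on either strand, GGCGCC (the core of a BMP response element) and TTCTTGGAA (a STAT site) in the hepcidin genes, TGATGNAA (a site of C/EBP with ATF proteins) in Chac1 and CACCC (a box bound by KLF proteins) in Hbb-bt.
Hamp: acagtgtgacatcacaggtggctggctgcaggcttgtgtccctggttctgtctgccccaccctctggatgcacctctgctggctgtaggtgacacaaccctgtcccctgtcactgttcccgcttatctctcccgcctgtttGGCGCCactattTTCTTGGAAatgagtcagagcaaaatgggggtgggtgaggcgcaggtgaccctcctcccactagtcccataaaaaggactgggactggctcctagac
Hamp2: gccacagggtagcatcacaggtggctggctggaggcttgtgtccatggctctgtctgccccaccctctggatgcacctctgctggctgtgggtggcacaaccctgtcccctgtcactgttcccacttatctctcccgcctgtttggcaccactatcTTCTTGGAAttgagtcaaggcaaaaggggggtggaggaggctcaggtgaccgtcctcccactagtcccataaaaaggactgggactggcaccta
Chac1: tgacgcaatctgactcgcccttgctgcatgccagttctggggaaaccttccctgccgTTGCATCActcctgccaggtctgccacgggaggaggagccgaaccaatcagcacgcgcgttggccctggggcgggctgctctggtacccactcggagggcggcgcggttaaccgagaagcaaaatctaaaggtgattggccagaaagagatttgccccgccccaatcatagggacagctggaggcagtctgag
Hbb-bt: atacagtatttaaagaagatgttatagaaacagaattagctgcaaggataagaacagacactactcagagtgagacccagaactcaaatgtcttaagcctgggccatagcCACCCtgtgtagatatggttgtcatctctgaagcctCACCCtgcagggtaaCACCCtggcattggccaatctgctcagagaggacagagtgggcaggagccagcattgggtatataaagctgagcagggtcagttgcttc
The Hamp and Hamp2 windows were identical at 227 of 253 aligned positions (89.7%). Hamp held GGCGCC from 109 to 104 bases before the start and TTCTTGGAA from 97 to 89, whereas Hamp2 held TTCTTGGAA from 94 to 86 and no GGCGCC in this window. Of 32851 promoter windows of the same length, 9.59% held GGCGCC, 0.365% TTCTTGGAA, 3.45% TGATGNAA and 52% CACCC; none of these motifs overlapped another in the windows printed, and a match is only a description of the letters.

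Hamp2 stood at 2.16 and 0.53 in the 24 h males, 3.59 and 2.93 in the 24 h females, 6.68 and 6.36 in the 48 h males, and 7.32 and 6.81 in the 48 h females. Every 48 h array was above every 24 h array. The rise was 22.5-fold (log2 4.49, SE 0.46, adjusted p 0.000121) and 5.17 in log2 within the males, after a first-day rise of 2.67. Hamp went from 3.65, 2.33, 5.17 and 4.92 to 5.88, 5.32, 7.21 and 6.97, in the order male 1, male 2, female 1, female 2 that is kept below. Again no array overlapped, and the rise was 5.02-fold (log2 2.33, SE 0.28, adjusted p 0.000418). Averaged over the sexes, the larger Hamp rise came on the first day, at 3.81 in log2, and the larger Hamp2 rise on the second. At 0 h Hamp stood at 0.91, 1.28, -1.21 and -0.16, and Hamp2 at 0.61, 0.64, -1.74 and -0.99. Within the males Hamp rose by 2.61 on the second day. That order of the days held in females alone for Hamp and in males alone for Hamp2, and the first-day change of females crosses slides. The 2 genes are near-identical copies whose probes may read each other's transcripts, so their separate sizes are uncertain, and the same holds for the globin, Stfa and cystatin, histone and Serpina3 genes below.

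Among 30 tested hepcidin regulators and targets, 3 rose, against 1.21% of all genes, and none fell, with a list median of 0.09 against 0.03 over all genes. The third was Atoh8, a transcription factor gene induced by BMP signalling, which went from between -1.21 and -0.80 to between -0.14 and 0.32 (log2 1.08, SE 0.12, adjusted p 0.000195) and had risen by 0.69 on the first day. Bmp6, the ligand that endothelial cells make when iron is high, changed by 0.69 (SE 0.34, adjusted p 0.378) after a called first-day rise of 1.62. The BMP target genes Id1 and Smad7 changed by 0.04 (SE 0.22) and 0.36 (SE 0.15) and did not pass, nor did the BMP modulator gene Twsg1 at 0.23 (SE 0.07, adjusted p 0.111). Of 26 iron-handling genes, 2 rose, against 1.21% of all genes, and none fell. Slc40a1, which encodes ferroportin, rose by 0.35 (SE 0.08, adjusted p 0.0353), from 5.85 to 5.95 on the 24 h arrays to 6.2 to 6.30 on the 48 h arrays. This call starts on the second day, and it was lost with slide as a fixed term (0.34, adjusted p 0.252), when none of the 26 passed. Tfrc, the transferrin receptor gene, had fallen by 2.48 on the first day and changed by -0.12 (SE 0.24, adjusted p 0.88) on the second.

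**Figure D2:**
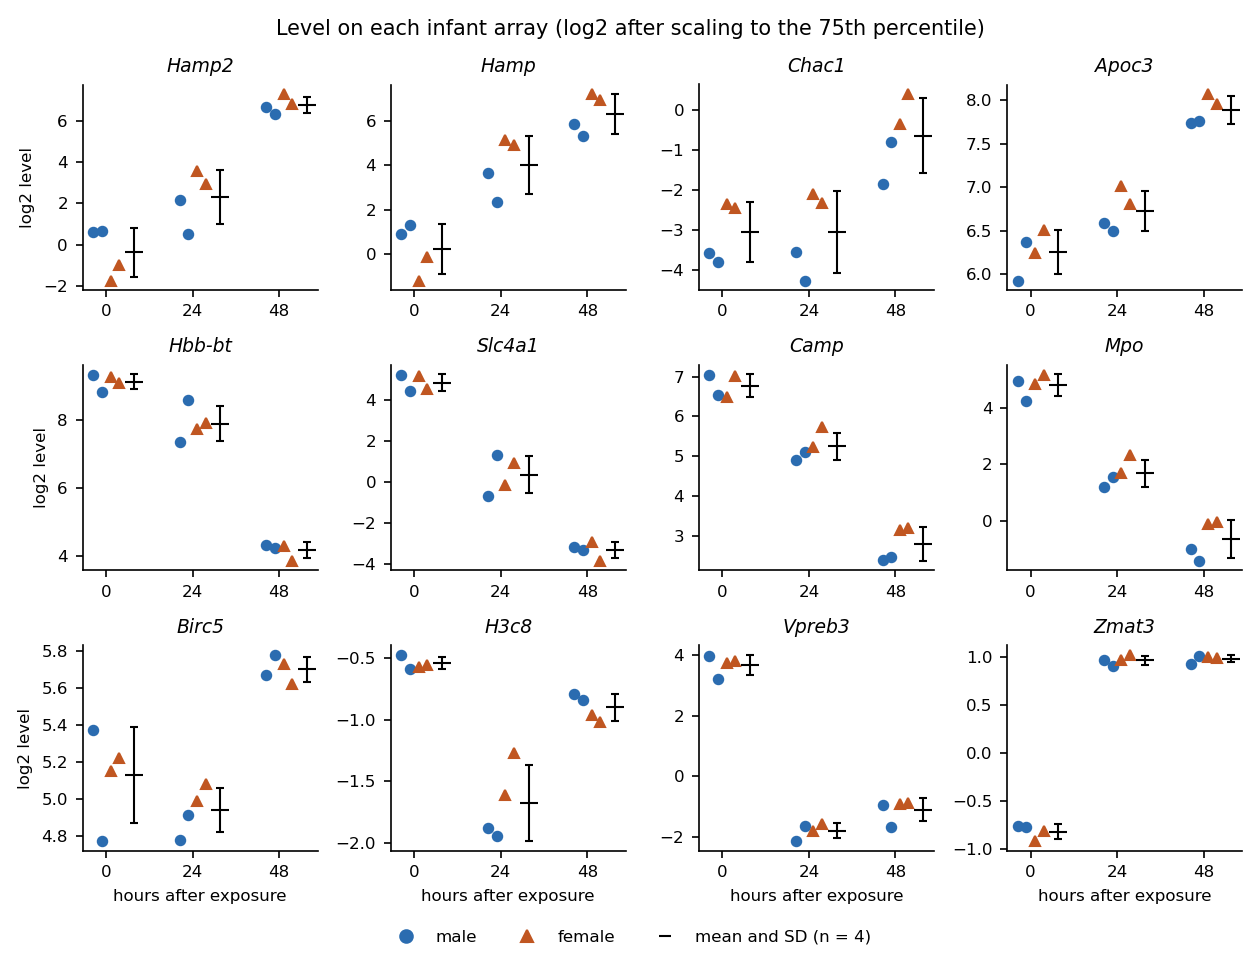
Each panel gives 1 gene on the 12 infant arrays by hours after exposure, as log2 level after scaling, with males as circles, females as triangles, and the mean with its SD (n = 4) beside them; the vertical axes differ between panels and do not start at 0. Hamp2, Hamp and Apoc3 rose on both days, Chac1 passed on the second day and not the first, Hbb-bt, Slc4a1, Camp and Mpo fell on both, H3c8 fell and then rose, and Zmat3 stood at 0.90 to 1.02 on the 8 arrays at 24 h and 48 h.

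Chac1, an enzyme gene that the transcription factor ATF4 induces under amino acid or unfolded protein stress, did not pass on the first day and rose on the second. Its 24 h levels were -3.54, -4.25, -2.10 and -2.33, 2 of the 4 not being well above background, and its 48 h levels were -1.85, -0.80, -0.36 and 0.39. The arrays did not overlap, and females were above males at both times. The rise was 5.28-fold (log2 2.40, SE 0.29, adjusted p 0.00043) and 2.57 in log2 within the males. It was 1.22 in log2 after normexp background correction, and 4.57-fold with the dim 24 h arrays raised to the floor, the level of the dimmest well-measured probe. Of 33 tested genes of the integrated stress response, Chac1 was the 1 that rose and 1 fell, against 1.21% of all genes rising and 0.796% falling. The list median was 0.01, against 0.03 over all genes. Ddit3 and Trib3, genes for a transcription factor and a pseudokinase of that response, changed by 0.00 (SE 0.12) and 0.01 (SE 0.28). Asns, the asparagine synthetase gene, changed by -0.70 (SE 0.21, adjusted p 0.115), with all 48 h arrays under all 24 h arrays. The member that fell was Vldlr, a lipoprotein receptor gene, by 0.76 on the log2 scale (SE 0.15, adjusted p 0.0172), which undid a first-day rise of 0.65. Vldlr did not pass with slide as a fixed term (adjusted p 0.0917) or within the males on slide 1 (0.189).

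Of 46 tested erythroid genes, 16 fell and none rose, against 0.796% of all genes falling, and 14 of the 16 had already fallen on the first day, when 38 of the 46 did. Their mean level was 2.45 to 3.09 on the 0 h arrays, 0.18 to 0.97 at 24 h and -0.33 to -0.26 at 48 h. The list median of the second day was -0.65, or -0.18 over the 41 members with a level when 9 genes under background at 1 time were held to their bound. The probes of 30 to 32 members were well above background on the 48 h arrays. Within the males on slide 1, 5 of the 46 passed, all falling, and with slide as a fixed term 9 did, with medians of -0.51 and -0.49.

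Hbb-bt, an adult beta globin, had the largest fall among genes with a symbol. It went from 7.34, 8.57, 7.74 and 7.89 to 4.34, 4.25, 4.31 and 3.87. The groups did not overlap, and the fall was 12.9-fold (log2 -3.69, SE 0.29, adjusted p 1.55e-05; -3.66 in males) after a first-day fall of 1.23. Hbb-b2 fell by 2.94 on the log2 scale and Hbb-b1 by 2.63, and the alpha globins Hba-a1 and Hba-a2 fell by 2.22 and 1.57 (adjusted p 5.3e-05, 0.00226, 0.000108 and 0.00308). Hba-a2 had not moved past the threshold on the first day (-0.18, adjusted p 0.634), so its fall is classed as starting on the second. Hbb-b1 is classed so too, although its mean had gone from 6.14 at 0 h to 5.12 at 24 h.

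Several membrane genes of red cell precursors lay at or near background at 48 h. Slc4a1 stood at -0.65, 1.31, -0.14 and 0.93 at 24 h and at -3.17, -3.31, -2.93 and -3.85 at 48 h, when 2 of 4 arrays measured it well above background. It fell by 3.68 on the log2 scale (SE 0.41, adjusted p 0.000228), or by 2.03 after normexp background correction, after 4.51 on the first day. The blood group genes Rhd and Kel and the erythroid gene Trim10 were well above background on 3 of 4 arrays at 24 h and on no 48 h array. Their falls are therefore at least 1.72-fold, 1.14-fold and 1.18-fold, where "at least" sets the 24 h mean against the dimmest well-measured probe of each 48 h array. The adjusted p without that floor was 0.00952, 0.0188 and 0.0431. None passed within the males on slide 1 (adjusted p 0.259, 0.369 and 0.461) or with slide as a fixed term (0.134, 0.323 and 0.415). After normexp background correction they changed by -0.685, -0.606 and -0.6 in log2, for Rhd less than its bound.

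Gata1, the master regulator of erythroid cells, fell by 1.02 on the log2 scale (SE 0.23, adjusted p 0.0368) after 2.91 on the first day, and its arrays overlapped between the times. After normexp background correction it changed by -0.52. Klf1, which activates globin genes, changed by -0.23 (SE 0.17, adjusted p 0.573) after a called fall of 1.32. Alas2, the first enzyme gene of haem synthesis in red cells, changed by -0.53 (SE 0.19, adjusted p 0.19), although its 48 h arrays, 3.48 to 3.75, were all below its 24 h arrays, 3.82 to 4.48.

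Granulocyte genes were, of the lists tested, the one with the most falls. Of 34 tested, 24 fell and none rose, against 0.796% of all genes falling, with a median of -1.57, or -1.33 with 1 gene held to its bound. On the first day 19 of the 34 had fallen, with a median of -0.90, when 20.2% of all genes passed. Their mean level was 2.77 to 3.16 at 0 h, 1.53 to 2.26 at 24 h and 0.12 to 0.60 at 48 h, so the times did not overlap. Of the 24, 17 continue and 7 start. In males on slide 1 7 of 34 passed and with slide as a fixed term 11 did, all falling, with medians of -1.43 and -1.41. Without 48 h female 1, 16 of the 34 fell.

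Genes of secondary granules, which neutrophil precursors make midway through maturation, fell together. Camp, the cathelicidin gene, went from 4.91, 5.11, 5.24 and 5.72 to 2.38, 2.45, 3.13 and 3.20. The fall was 5.49-fold (log2 -2.46, SE 0.16, adjusted p 3.42e-06; -2.60 in males). Ltf, the lactoferrin gene, went from 3.79, 4.18, 4.51 and 4.85 to 1.73, 1.26, 2.10 and 2.33, a 5.58-fold fall (adjusted p 3.06e-05). Ngp, another granule protein gene, fell 5.45-fold (adjusted p 0.002). For all 3 the second-day fall was larger than the first-day one, which was 1.53, 0.79 and 1.23 on the log2 scale.

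Among primary granule genes, which are made earlier in the lineage, the 3 named here fell more on the first day than their second-day estimates. Mpo, the myeloperoxidase gene, was at 4.23 to 5.15 on the 0 h arrays, at 1.19, 1.55, 1.68 and 2.33 at 24 h and at -1.0, -1.41, -0.10 and -0.05 at 48 h. That is a first-day fall of 3.10 and a second-day fall of 2.33 on the log2 scale (SE 0.27, adjusted p 0.000313). Ctsg, the cathepsin G gene, fell by 2.88 and then by 2.02 (adjusted p 0.0048), the latter being -1.33 after normexp background correction. Elane, the neutrophil elastase gene, fell by 1.97 on the first day and changed by -0.51 on the second (SE 0.13, adjusted p 0.0574), and its arrays did not overlap.

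Several genes of later neutrophil stages passed on the second day and not on the first. The means of those named next had all fallen on the first day too. Between 0 h and 24 h the mean of S100a9 went from 8.59 to 7.67 and that of Stfa1 from 7.19 to 5.99, so no later onset is shown. The alarmin gene S100a9 went from 7.44, 7.69, 7.59 and 7.97 to 5.74, 5.55, 5.95 and 6.12 (log2 -1.83, adjusted p 0.0236), while its partner S100a8 had passed on the first day too and fell by 2.07 (adjusted p 0.00833). The collagenase gene Mmp8 fell by 1.35 and the gelatinase gene Mmp9 by 1.23, the latter measured on 2 of 4 arrays at 48 h, and after normexp background correction they changed by -0.83 and -0.49. Chil3, a chitinase-like gene of neutrophil precursors and macrophages, fell 6.61-fold from between 2.60 and 3.54 to between 0.05 and 0.63 (adjusted p 0.00405). The Stfa genes encode cystatins, inhibitors of cysteine proteases: Stfa1, Stfa2 and Stfa3 fell by 2.06, 2.07 and 2.38 and their relative Cstdc5 by 2.07 (adjusted p 0.0183, 0.0288, 0.0229 and 0.0249).

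Transcription factor genes of the granulocyte lineage fell on both days. Cebpe, which drives secondary granule genes, went from 0.73, 1.36, 1.5 and 1.88 to -0.84, -0.94, -0.21 and -0.35 (log2 -1.95, SE 0.16, adjusted p 1.97e-05). Gfi1, a repressor needed for neutrophil formation, lay below background on all 48 h arrays. It fell at least 1.97-fold against the floor (adjusted p 3.06e-05 without it). Csf3r, the receptor gene for granulocyte colony-stimulating factor, changed by -0.01 (SE 0.18, adjusted p 0.986). Further large falls came in Itgb2l, an integrin gene of neutrophils (log2 -2.23, adjusted p 0.0048, 2 of 4 arrays measured at 48 h), in the lectin gene Fcnb (2.88-fold with the dim arrays raised to the floor, adjusted p 0.00417 without it, 1 of 4) and in the palmitoyltransferase gene Zdhhc22 (-2.42, adjusted p 0.000126). AA467197 fell at least 3.86-fold against the floor (adjusted p 2.41e-05 without it). Itgb2l, Fcnb and Zdhhc22 changed by -0.83, -0.52 and -1.49 after normexp background correction. Gfi1 and AA467197 then changed by -0.40 and -0.72 in log2, which is less than their bounds above.

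**Figure D3:**
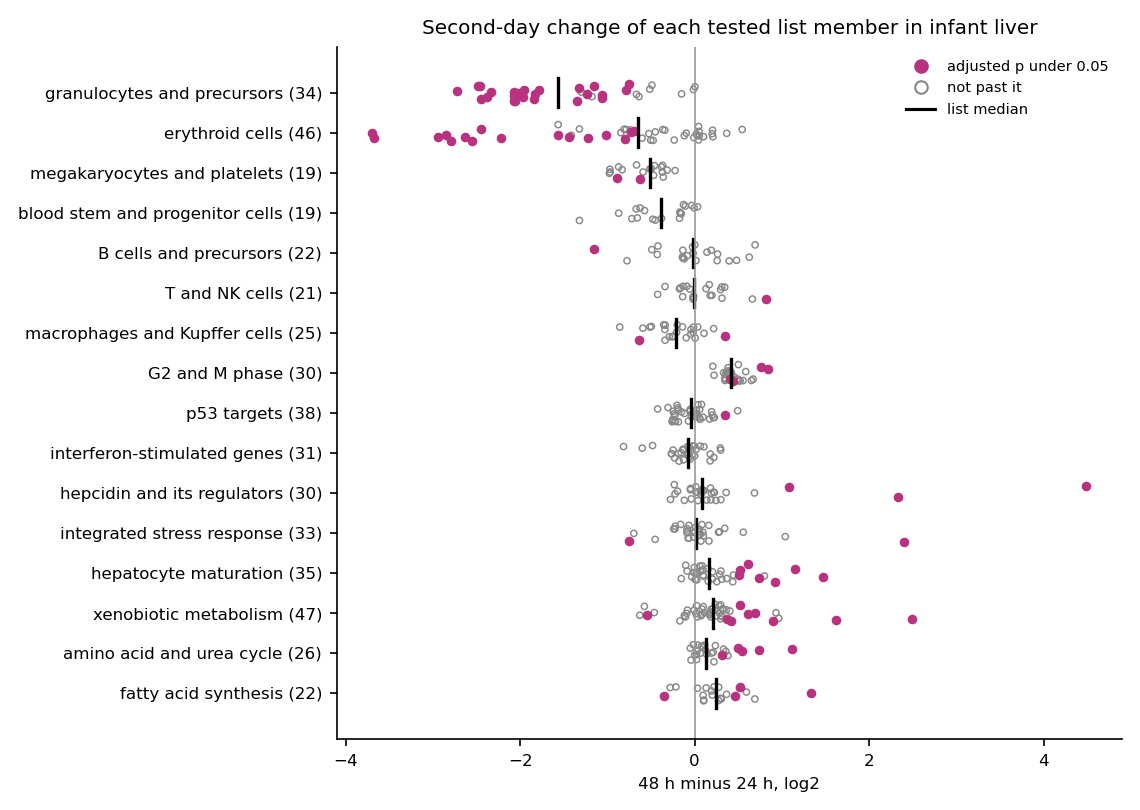
Each point is the 48 h minus 24 h change in log2 of 1 tested member of the list named at the left, with the number tested in brackets; filled points passed an adjusted p of 0.05 and the bar is the list median. Granulocyte genes had a median of -1.57 and erythroid genes of -0.65, all 30 G2 and M genes lay above 0, and the hepcidin list was drawn out by Hamp2 and Hamp.

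Other blood lineages changed in fewer genes. All 19 megakaryocyte and platelet genes had negative estimates, with a median of -0.51 against 0.03 over all genes. Of them 2 passed, where 0.796% of all genes fell: Pf4, a platelet chemokine gene, at -0.63 (SE 0.14, adjusted p 0.0368) and the platelet receptor gene Gp1ba at -0.89 (SE 0.21, adjusted p 0.0439). Neither passed within the males on slide 1 (-0.73, adjusted p 0.194, and -1.03, adjusted p 0.213), and Gp1ba changed by -0.58 after normexp background correction. None of 19 stem and progenitor genes passed, where 2.01% of all genes did, with a median of -0.38.

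B cell genes were called lower mostly on the first day, when 18 of 22 passed, against 20.2% of all genes, with a median of -2.91. The probes of all 22 were well above background on the 0 h arrays, of 11 to 15 on the 24 h arrays and of 12 to 17 on the 48 h arrays. For members already at background at 24 h a further fall could not be seen. On the second day 1 passed, against 0.796% of all genes falling. This was Ms4a1, the gene for CD20, which fell by 1.16 on the log2 scale (SE 0.14, adjusted p 0.00037), 2 of the 4 arrays at 48 h holding it above background. With the dim arrays raised to the floor it fell 1.70-fold, and after normexp background correction it changed by -0.26. Vpreb3, a pre-B cell receptor gene, stood between 3.20 and 3.98 at 0 h, at -2.16, -1.65, -1.82 and -1.6 at 24 h and at -0.97, -1.68, -0.94 and -0.88 at 48 h. Its second-day change of 0.69 (SE 0.20, adjusted p 0.106) did not pass, and 48 h male 2 stood with the 24 h arrays.

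Of 21 T and NK cell genes, Zap70, a T cell receptor kinase gene, rose by 0.82 (SE 0.13, adjusted p 0.00472) and no other passed, where 1.21% of all genes rose and 0.796% fell. Of 25 macrophage and Kupffer cell genes 1 rose and 1 fell, against the same shares of all genes. Slc40a1 rose as given above and the lysozyme gene Lyz2, which granulocytes express too, fell by 0.64 (SE 0.14, adjusted p 0.0389). Clec4f, which marks Kupffer cells, changed by -0.04 (SE 0.10, adjusted p 0.9). Hdc, the histidine decarboxylase gene of mast cells and other myeloid cells, fell by 0.84 (SE 0.16, adjusted p 0.015). It was the 1 of 15 eosinophil, basophil and mast cell genes that passed, where 0.796% of all genes fell. After normexp background correction Hdc changed by -0.45.

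All 30 tested G2 and M genes had positive estimates, in males and in females alike, with a median of 0.42 against 0.03 over all genes; 4 passed and none fell. Over all genes 1.21% rose. For 26 of the 30 the arrays of both times did not overlap, as for 12.6% of all genes. After normexp background correction 29 of 30 were positive and 10 passed, whereas under quantile normalization 2 passed, and with slide as a fixed term none of 30 passed while the median was 0.49. On the first day 2 of the 30 had fallen, with a median of -0.24.

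Birc5, which encodes survivin, a subunit of the complex that oversees chromosome segregation, went from 4.78, 4.91, 4.99 and 5.08 to 5.67, 5.78, 5.73 and 5.62. It rose 1.70-fold (log2 0.76, SE 0.14, adjusted p 0.0111; 0.88 in males). Ccnb2, a cyclin gene of mitosis, rose by 0.84 (SE 0.20, adjusted p 0.0468), the checkpoint gene Mad2l1 by 0.44 (SE 0.06, adjusted p 0.00175) and the centromere histone gene Cenpa by 0.41 (SE 0.09, adjusted p 0.0387). Mki67 changed by 0.37 (SE 0.25, adjusted p 0.546) after a first-day fall of 1.02, and Ccnb1 by 0.52 (SE 0.26, adjusted p 0.37). The median of the G1 and S genes was 0.01, and the 1 of 31 that passed was the G1 cyclin gene Ccnd3, which fell by 0.38 (SE 0.07, adjusted p 0.0141). Of all genes 0.796% fell. Erythroid and granulocyte marker levels fell over the same day, as given above, and their part in these mitotic values was not tested.

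Clustered histone genes, a group picked after their values were seen, included the reversals of H3c8, H4c17 and H4c9. Of 37 tested, 8 rose and none fell on the second day, with a median of 0.20, where 1.21% of all genes rose. On the first day 27 had fallen and 2 risen with a median of -1.11, when 20.2% of all genes passed. At 48 h against 0 h, 23 were lower and 6 higher with a median of -0.82, where 35.6% of all genes passed. The genes that rose on the second day were H3c8, H4c17, H4c9, H2bc1, H2bc4, H2bc6, H2bc14 and H2bc23, with no linker histone gene and no H2ac gene among them. H3c8 went from between -0.59 and -0.47 at 0 h to -1.88, -1.95, -1.61 and -1.27 and back to -0.79, -0.84, -0.96 and -1.02. Its second-day rise was 1.71-fold (log2 0.78, SE 0.10, adjusted p 0.000909), and every 48 h array was under every 0 h array. H4c17 and H4c9 rose by 0.94 and 0.75 (adjusted p 0.0368 and 0.029) after falls of 1.41 and 0.83. With slide as a fixed term neither passed (adjusted p 0.123 and 0.0536), nor within the males on slide 1 (0.25 and 0.116). H3c8 passed in both (0.000751 and 0.0022). Only 1 of 4 arrays at 24 h held H2bc23 above background, and with the dim arrays raised to the floor of background it rose 2.34-fold (adjusted p 0.00256 without the floor). H2bc23, H3c8, H4c17 and H2bc6 changed by 0.44, 0.47, 0.40 and 0.34 after normexp background correction. H2bc6 rose by 0.72 (adjusted p 0.0183) and H2bc14 by 0.64 (adjusted p 0.00127). H2bc6 did not pass with slide as a fixed term (adjusted p 0.348) or within the males on slide 1 (0.127). The rises of H2bc23, H2bc6 and H2bc1 start on the second day, and those of H2bc14 and H2bc4 continue. H1f5, a linker histone gene, fell by 1.84 on the first day and changed by 0.02 (SE 0.20, adjusted p 0.982) on the second.

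The other reversals by size were genes of varied kind. Fam210b, a mitochondrial gene that erythroid cells use, went from between 3.66 and 3.96 at 0 h to 2.89, 3.09, 3.16 and 3.10 and then to 3.85, 3.82, 3.77 and 3.80, a rise of 0.75 (SE 0.09, adjusted p 0.00035). The cell death gene Bik rose by 0.84 (adjusted p 0.0121) after a fall of 0.48, and the membrane protein gene Pllp by 0.83 (adjusted p 0.00206) after a fall of 0.86. In the other direction, Susd4, a complement regulator gene, went from 3.12, 3.29, 3.16 and 3.21 at 24 h to 1.78, 1.94, 2.18 and 2.33 (log2 -1.14, SE 0.11, adjusted p 9.05e-05) after a rise of 0.67. Tuba8, an alpha tubulin gene, fell by 1.27 (adjusted p 0.00294) and the transcription factor genes Spdef and Tox3 by 1.23 and 1.02 (adjusted p 0.0304 and 0.0249). Rasal1, a Ras inhibitor gene, fell by 0.99 and Iqca by 0.81 (adjusted p 0.0136 and 0.0249). Spdef, Tox3 and Rasal1 changed by -0.78, -0.52 and -0.41 after normexp background correction. With slide as a fixed term Fam210b, Pllp and Susd4 passed (adjusted p 0.00308, 0.00255 and 0.00605), as they did within the males on slide 1. Bik, Tuba8, Spdef, Tox3, Rasal1 and Iqca passed in neither. Their adjusted p with slide as a fixed term was 0.29, 0.0622, 0.238, 0.209, 0.0689 and 0.12.

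Of 35 tested genes of hepatocyte maturation 7 rose and none fell, against 1.21% of all genes rising, with a median of 0.16, and their mean level went from 4.64 to 4.74 on the 24 h arrays to 4.87 to 5.10 on the 48 h arrays. Alb itself changed by -0.10 (SE 0.17, adjusted p 0.843). In the males on slide 1, and also with slide as a fixed term, 3 of the 35 passed, all rising, with medians of 0.14 and 0.17. Erythroid and granulocyte levels fell over the same day, as given above, and their part in these rises was not tested.

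Apoc3, an apolipoprotein gene that slows triglyceride clearance, went from 6.59, 6.50, 7.01 and 6.81 to 7.74, 7.76, 8.07 and 7.95. All 48 h arrays were above all 24 h arrays, and the rise was 2.22-fold (log2 1.15, SE 0.11, adjusted p 9.05e-05; 1.20 in males). Of other named members, Igf1, the liver growth factor gene, rose by 0.51 (SE 0.07, adjusted p 0.00203), Igfals, which encodes the subunit that keeps IGF1 in the circulation, by 0.93 (SE 0.14, adjusted p 0.00427), and the receptor gene Ghr by 0.52 (SE 0.09, adjusted p 0.00909). Of these, Igf1 had risen on the first day already, and with slide as a fixed term Igfals and Ghr did not pass (adjusted p 0.13 and 0.233). Serpina3k, a secreted protease inhibitor gene, rose by 1.47 (adjusted p 0.00368) and Serpina9, a related inhibitor gene, by 1.6 (adjusted p 0.00477), both after a called first-day rise and both with arrays of the times that overlap. After normexp background correction Serpina9 changed by 1.04.

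Xenobiotic metabolism genes rose in 8 and fell in 1 of 47 tested, against 1.21% and 0.796% of all genes, with a median of 0.21. Cyp2c38, a cytochrome P450 gene, rose from between 2.56 and 3.28 to between 4.56 and 4.73 (log2 1.62, SE 0.24, adjusted p 0.00258). Cyp2c70, which makes the muricholic acids of mouse bile, rose by 0.69 (adjusted p 0.00405), and the glutathione transferase genes Gstm3 and Gstm1 by 0.90 and 0.61 (adjusted p 0.0109 and 0.013). Cyp2f2, which marks periportal hepatocytes, fell by 0.55 (adjusted p 0.0464), and its arrays overlapped. With slide as a fixed term 1 of the 47 rose, Cyp2c38 (1.57, adjusted p 0.0376), within the males 3 did, under median scaling 2 and without 48 h female 1 3.

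Amino acid enzyme genes had mostly risen on the first day, 21 of 26, when 20.2% of all genes passed. On the second day 5 of the 26 rose, against 1.21% of all genes, with none falling and a median of 0.13. With slide as a fixed term, within the males and under median scaling 1 passed in each, and 3 did without 48 h female 1. Prodh, which starts proline breakdown, went from 0.89, 0.48, 1.49 and 1.30 to 1.94, 1.86, 2.39 and 2.46 (log2 1.12, SE 0.11, adjusted p 9.05e-05). Tdo2, the liver's tryptophan dioxygenase gene, started on the second day, at 0.74 (adjusted p 0.00314), the aminotransferase gene Gpt continued, at 0.54 (adjusted p 0.015), and Gldc of the glycine cleavage system reversed a fall, at 0.49 (adjusted p 0.0022).

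Of 22 fatty acid synthesis genes 3 rose, against 1.21% of all genes: Thrsp, a regulator of lipid synthesis, by 1.33 (SE 0.25, adjusted p 0.0136), Agpat2, which builds phosphatidic acid, by 0.52 (adjusted p 0.00175), and the liver pyruvate kinase gene Pklr by 0.46 (adjusted p 0.0395). Tkfc, which phosphorylates products of fructose breakdown, fell by 0.35 (adjusted p 0.0398), and the list median was 0.25. Within the males, under median scaling, after normexp background correction and without 48 h female 1, 1 of the 22 rose in each, and after normexp Thrsp changed by 0.60 and Pklr by 0.29. Feeding state of the mice is not given in the sources used here.

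Other named genes rose without belonging to a list. Apol10a, an apolipoprotein L gene measured on 2 of 4 arrays at 24 h, rose by 2.05 (SE 0.47, adjusted p 0.0388), and the arrays overlapped between the times. H2-Q1, a class Ib MHC gene, went from 0.62, 0.16, 1.00 and 0.71 to 1.70, 1.80, 2.20 and 2.13 (log2 1.33, adjusted p 0.0048). Pp2d1, a phosphatase-like gene measured on 2 of 4 arrays at 24 h, rose by 1.42 (adjusted p 0.00405). After normexp background correction Apol10a changed by 0.73 and Pp2d1 by 0.45.

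Of 22 genes of fetal liver and imprinted growth genes 2 fell and none rose, against 0.796% of all genes falling, with a median of -0.12. They were Bex1 and Cd24a, at -1.02 and -0.91 (adjusted p 0.0121 and 0.0431), and Cd24a had fallen by 2.99 on the first day.

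The p53 targets were called mostly on the first day. Of 38 tested, 18 rose and 1 fell on the first day, when 20.2% of all genes passed. On the second day 1 rose, near the 1.21% of all genes, none fell, and the median was -0.04. Zmat3, an RNA-binding protein gene, stood at 0.96, 0.90, 0.96 and 1.02 and then at 0.92, 1.01, 1.00 and 0.99, against -0.92 to -0.76 at 0 h. Its second-day change was 0.02 (SE 0.08, adjusted p 0.946). Phlda3, an AKT inhibitor gene, changed by -0.24 (SE 0.33), the cyclin G1 gene Ccng1 by -0.19 (SE 0.12), the cell death gene Bax by -0.22 (SE 0.12) and Mdm2, the ubiquitin ligase gene for p53, by -0.12 (SE 0.09), and none passed. Cdkn1a, the cell cycle inhibitor gene, changed by 0.21 (SE 0.32, adjusted p 0.826) and Trp53inp1, a stress gene, by 0.17 (SE 0.17, adjusted p 0.709), with 48 h male 2 the highest array of both. The member that rose was Perp, a membrane protein gene, at 0.34 (SE 0.08, adjusted p 0.0452), a call lost within the males (0.35, adjusted p 0.289). Abcb1b, a drug exporter gene, changed by 0.49 (SE 0.16, adjusted p 0.137).

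Interferon-stimulated genes too were called on the first day. Of 31 tested, 19 rose and 1 fell on the first day, against 20.2% of all genes passing, and none passed on the second, with a median of -0.08. Ifi44 stood at 0.70, 0.53, 0.44 and 0.34 and then at 0.38, 0.47, 0.22 and 0.02, a change of -0.23 (SE 0.20, adjusted p 0.674). Rsad2, the gene for the antiviral protein viperin, changed by -0.81 (SE 0.23, adjusted p 0.0998), with all 48 h arrays below all 24 h arrays, and Isg15, a ubiquitin-like protein gene, by -0.27 (SE 0.24, adjusted p 0.684).

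**Figure D4:**
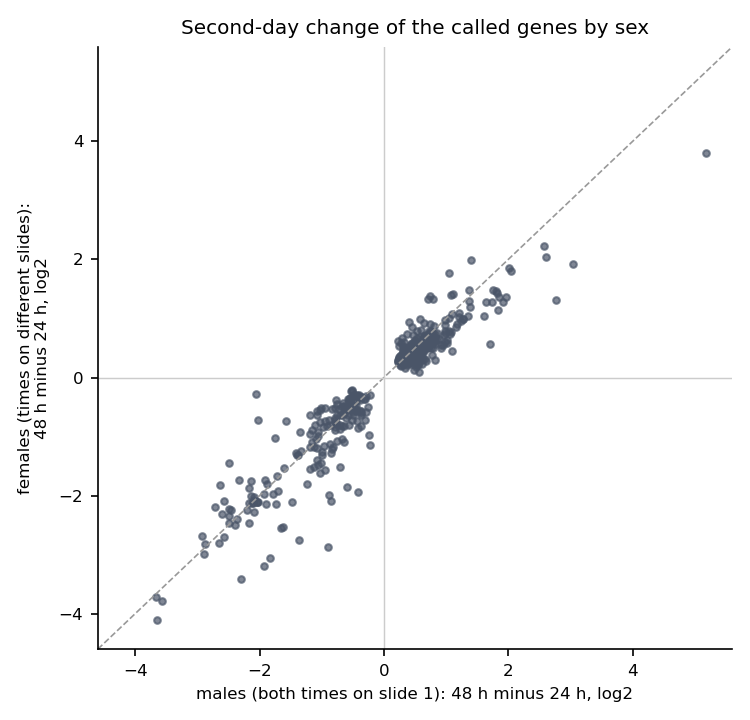
Each point is 1 of the 464 called genes, with the 48 h minus 24 h change of males across, both times on slide 1, and that of females upwards, times on different slides, both in log2 and from 2 mice per time; the dashed line marks equal change. All points lie at the lower left or the upper right, which calling on the average of both sexes favours. Hamp2, at 5.17 in males and 3.80 in females, lies farthest out.

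Sexes were compared by testing the difference of the second-day changes, males minus females. No gene passed (0%, limma, 0 of 23115), the smallest adjusted p being 0.278, and 759 genes had an unadjusted p under 0.05. With 2 mice per sex and time this leaves wide errors. Hamp2 rose by 5.17 in males and 3.80 in females, a difference of 1.37 that did not pass (adjusted p 1).

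Second-day changes were then compared with those of adult liver. In adults 366 genes (1.58%) passed between 48 h and 24 h, and the difference of the infant and adult changes passed for 264 genes (1.14%), the infant change being above the adult one for 177 and below it for 87. Of the 264, 149 were among the 464 called in infants. The count was 54 with slide as a fixed term and 77 to 287 when 1 infant array of the 8 was left out.

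The hepcidin genes differed between ages. Adult Hamp2 was at 7.23 ± 1.36 (SD, n = 4) at 24 h and 7.42 ± 1.89 at 48 h, and adult Hamp at 8.80 ± 0.19 and 8.86 ± 0.02, and infants reached 6.79 ± 0.40 and 6.34 ± 0.90 at 48 h. The infant change exceeded the adult one by 4.30 for Hamp2 (SE 0.65, adjusted p 0.0073), by 2.27 for Hamp (adjusted p 0.0178) and by 0.90 for Atoh8 (adjusted p 0.024). Chac1 exceeded the adult change of 0.18 by 2.22 (adjusted p 0.0218) and Apoc3 the adult -0.06 by 1.21 (adjusted p 0.00388).

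Granulocyte genes differed in 12 of 34, against 1.14% of all genes. Camp fell by 2.33 more in infants (adjusted p 0.000371), against an adult change of -0.12, and Cebpe by 1.85 more (adjusted p 0.00225), both measured on all adult arrays. Chil3 rose by 1.25 in the adult estimate (adjusted p 0.161), which made the difference -3.97 (adjusted p 0.00719). For Mpo, Ltf, Gfi1, Fcnb, Itgb2l and AA467197 no adult array at either time was well above background, so the adult level has only a bound, and their differences, from -2.72 to -1.95, rest on adult values at background.

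Globin genes, a group picked after their values were seen, fell in both ages, 5 of 6 in each, with medians of -2.43 in infants and -3.52 in adults. Of all genes, 2.01% passed in infants and 1.58% in adults. Hbb-bt fell by 4.73 on the log2 scale in adults (adjusted p 5.62e-06) and by 3.69 in infants, a difference that did not pass (1.03, adjusted p 0.263), whereas for Hba-a2 the adult fall was 3.24 and the difference of 1.67 passed (adjusted p 0.0295). The erythroid membrane gene Slc4a1 differed the other way, by -3.35 (adjusted p 0.0178), with 1 of 4 adult arrays above background at each time.

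Interferon-stimulated genes fell in 17 of 31 in adults, where 1.58% of all genes passed, with a median of -0.93, and in none of 31 in infants. The difference passed for 4 of the 31, against 1.14% of all genes, including Ifit1 (1.96, adjusted p 0.0273), Ifit2 (1.6, adjusted p 0.0287) and Ifi44 (1.6, adjusted p 0.0209). Adult Ifit1 changed by -1.85 (adjusted p 0.00609) and infant Ifit1 by 0.11 (adjusted p 0.907). Fatty acid synthesis genes rose in adults too, 8 of 22 with none falling and a median of 0.43, against 0.25 in infants. The difference between ages passed for 3 of the 22, against 1.14% of all genes. Thrsp rose by 1.11 in adults (adjusted p 0.0428) and by 1.33 in infants, and the difference of 0.23 (adjusted p 0.814) did not pass.

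**Figure D5:**
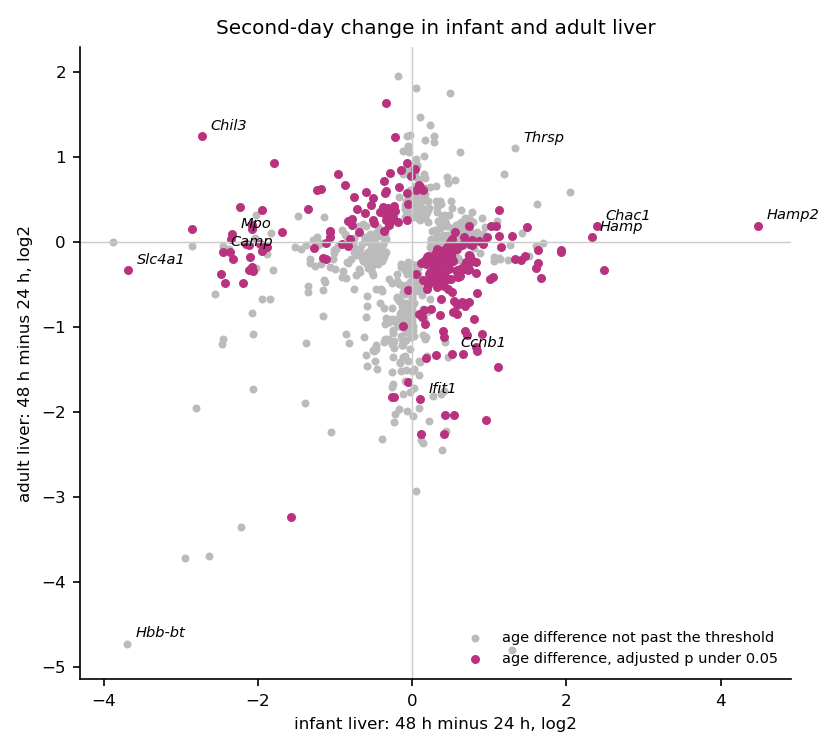
Each of the 861 points is a gene that passed in infants, in adults or in the difference between them, with the infant 48 h minus 24 h change across and the adult one upwards, both in log2. The 264 genes whose difference passed are coloured; the hepcidin genes and Chac1 lie at the right with adult changes near 0, the granulocyte genes at the left, Ifit1 fell in adults alone, and Hbb-bt fell in both.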

How the data were processed

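Liver RNA was read on 24 single-colour Agilent mouse arrays. The deposited scanner files hold each spot's intensity (its processed signal, and medians of the spot and of the background around it), written by Feature Extraction (the version is 10.5.1.1 per the file headers, whereas the submitters' processing notes name 11.5.1). Their 0 or 1 marks for background and outlier spots were used as given. The deposited table holds log2 values of the same arrays, which match the scanner values after a constant per array and centring of each probe (correlations 0.99996 to 1; array medians -0.162 to 0.18); it served as an alternative. Array build mm9 is named per the file headers, and its coordinates were not used.

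From 59305 spots other than controls, marked outliers were left out and replicate spots averaged to 55681 probes, of which 94 were missing on an array; 0 spots were saturated. Of 29753 RefSeq-style accessions 27987 (94.1%) matched RefSeq's list for GRCm38.p6. The 75th percentile was subtracted, a probe entered when 4 or more of the 24 arrays held it well above background, and each gene was read by its brightest such probe: 23115 genes, 14951 with a symbol and 8164 under the array's name. Promoter windows came from RefSeq. A mean for every combination of age, time and sex was estimated in limma 3.58.1 (lmFit followed by eBayes, with residual degrees of freedom of 12 and prior ones of 1.88, in R 4.3.3, with data.table in version 1.17.8, statmod 1.5.0). Changes were averaged over sexes, with Benjamini-Hochberg adjustment across the 23115 genes. Figures used Python 3.11.15 and matplotlib 3.10.9. The code was tested on simulated data.

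The named genes were a set list, the 12 largest rises and 12 largest falls with a symbol (and up to 6 per class and direction) whose arrays do not overlap within a sex and whose probe was measured above background by every array of the brighter time, up to 4 genes per list by smallest p with examples, and up to 6 genes each way by the age and sex differences. Genes whose other probes move the opposite way were left out, and some genes under the rule are not reported here. Members and gene lists were chosen with earlier results of these data known. Alternatives were background correction, scaling, filter, probe, spread, samples, covariates, slide and replicate block. Normexp used the spot median, since the files used here hold no spot mean.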

Additional observations from a re-analysis of the deposited data

Results flagged for a closer look

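Among 268 groups of 4 infant arrays of named genes, 15 (5.6%) held 1 array whose gap to the others was wide for the range of the group, and chance gives about 1 in 20. The array was the highest for Id1 at 2.58 (infant 48 h female 1, median of the others 2.34), Elane at 1.14 (infant 24 h female 2, median of the others 0.84), Ccnb2 at 4.52 (infant 48 h male 2, median of the others 4.46), Bik at 0.12 (infant 24 h female 2, median of the others 0.01), Iqca at 0.80 (infant 48 h male 2, median of the others 0.21) and Bex1 at 4.03 (infant 24 h male 2, median of the others 3.24). It was the lowest for Pklr at -0.48 (infant 48 h female 1, median of the others -0.37), Alb at 9.63 (infant 24 h female 1, median of the others 10.10), AA467197 at -4.95 (infant 48 h male 2, median of the others -3.69), Vpreb3 at -1.68 (infant 48 h male 2, median of the others -0.94), Ccnb2 at 3.36 (infant 24 h male 1, median of the others 3.72), H4c17 at -2.35 (infant 48 h male 1, median of the others -1.75), Bax at 3.59 (infant 48 h female 2, median of the others 3.70), Phlda3 at 3.36 (infant 48 h male 2, median of the others 3.43) and Nup210 at 3.82 (infant 24 h male 2, median of the others 3.97).

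The second-day change differed between infants and adults by limma's test of the difference for 47 of the named genes, each value below being the infant minus the adult 48 h minus 24 h change in log2. The infant change was above the adult one for Hamp2 (4.30), Hamp (2.27), Chac1 (2.22), Ifit1 (1.96), Serpina9 (1.91), Ccnb1 (1.83), H2bc23 (1.72), Hba-a2 (1.67), Serpina3k (1.64), Ifit2 (1.6), Ifi44 (1.6), H2-Q1 (1.53), Apoc3 (1.21), Pllp (1.19), Zap70 (1.05), H2bc6 (1.05), Adh4 (0.99), Apoa5 (0.97), Aldh1a1 (0.92), Fam210b (0.92), Atoh8 (0.90), Tdo2 (0.89), H3c8 (0.81), Prodh (0.75), Igf1 (0.71), H2bc14 (0.67), Slc40a1 (0.67), Ghr (0.60), Gldc (0.49) and Agpat2 (0.48). It was below the adult one for Chil3 (-3.97), Slc4a1 (-3.35), Fcnb (-2.72), Itgb2l (-2.65), Mpo (-2.43), Camp (-2.33), AA467197 (-2.25), Ltf (-2.11), Zdhhc22 (-1.95), Gfi1 (-1.95), Cebpe (-1.84), Mmp9 (-1.84), Alox5 (-1.81), Tuba8 (-1.20), Hdc (-1.08), Tkfc (-0.94) and Alox5ap (-0.79). No adult array at 24 h or 48 h was well above background for Fcnb, Itgb2l, Mpo, AA467197, Ltf, Gfi1, Alox5, H3c8 and H2bc23, so those differences rest on adult values at background.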

How the results depend on the processing

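Of 464 calls at 48 h against 24 h, median scaling left 151, no filter 270, sex left out 143, slide as a fixed term 100, slide as a random block 210 and males within slide 1 91. The age difference (264) gave 93 with median scaling, 112 with no filter, 418 with trended robust eBayes, 22 with sex left out, 54 with slide fixed, 92 with slide random and 130 with an additive sex term, an alternative chosen after seeing the data. The sex difference (0) gave 1 with no filter. Continuing, reversing and starting genes (200, 45 and 219) were 68, 11 and 72 with median scaling, 110, 26 and 134 with no filter, 61, 10 and 72 with sex left out, 37, 10 and 53 with slide fixed, 93, 20 and 97 with slide random, 35, 7 and 49 in males, and 100, 18 and 121 when 1.5-fold was asked of both days; the additive sex term gave 27 reversing and 143 starting genes. The cause was not tested. Leaving out 1 array gave 176 to 495 calls (lowest without 48 h female 1), 77 to 287 for the age difference, 0 to 4 for the sex difference, 81 to 245 continuing, 17 to 47 reversing and 69 to 352 starting genes (highest without 0 h male 1); the lone array left in a cell is assumed to vary like the others. Arrays share a replicate number only (correlations of the number 1 minus number 2 difference between 24 h and 48 h were 0.08 in males and 0.02 in females), and with the replicate block 366 genes passed, 389 for the age difference and 0 for the sex difference. Normexp (548), quantile (434), the filters (478 and 482), mean of probes (419), fewer arrays (433 and 415) and the deposited table (415) stayed within 1.5 times of 464. All 103 named called genes kept their direction in every setting run, 22 kept their call in all of them, 40 passed with slide fixed and 60 under median scaling. After normexp 30 of them changed over 1.5 times less, in the same direction. Of 31 named genes not called, 26 passed in no setting. The classes could not be fitted on the 8 arrays alone, which hold no 0 h array, and the age difference within a slide was not run, since no slide holds both ages at both times. Genes near background have only bounds.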

Other observations

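Some called genes outside the lists, chosen one by one after their values were seen and standing for no group, moved on both days. Alox5, which starts leukotriene synthesis, fell by 1.69 on the log2 scale (limma's adjusted p 1.03e-05), or by 0.88 after normexp background correction, and Alox5ap, which hands it the substrate, fell by 0.83. Aldh1a1, which makes retinoic acid, rose by 0.98 and Apoa5, a regulator of plasma triglyceride, by 0.77.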
